A study of Mus musculus with 4 samples.

Results

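Kidney cells of givinostat-treated mice were set against kidney cells of vehicle-treated mice, over all cell types captured in a model of crescentic glomerulonephritis. Cells were taken by the library name at the end of each barcode and by a minimum of 200 detected genes. This kept 3472 givinostat cells and 3930 vehicle cells, 7402 of the 15777 cells kept in the series. All groups were male C57Bl/6 mice of 9 weeks with the genotype Pax2.rtTA;TetO.Cre;R26.Confetti, in which a Pax2-driven tetracycline activator controls Cre and a multicolour reporter. Every mouse was injected with an anti-GBM serum (PTX-001), which targets the basement membrane of the glomerulus, and was killed 7 days later. Treatment started 1 day after the serum, with givinostat (ITF2357, 10 mg/kg), panobinostat (15 mg/kg), ruxolitinib (60 mg/kg) or vehicle (distilled water). There were 2 animals in each group, and the labels leave unsaid whether their cells were pooled into its library. Mice without serum were not analysed here, so no value below compares with an uninjured kidney.

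Givinostat inhibits histone deacetylases, enzymes that remove acetyl groups from histones and other proteins, and their inhibition is known to shift the transcription of many genes. In anti-GBM nephritis, antibodies bound along the glomerular capillary wall draw in neutrophils, monocytes and T cells. T cells that make interleukin 17, both gamma-delta and CD4-type, are recorded early actors in this model. Dendritic cells present antigen to these T cells, and the distal convoluted tubule reabsorbs salt through the thiazide-sensitive cotransporter Slc12a3 while also moving calcium and magnesium.

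Each group is 1 library, so no test was possible. Ratios are givinostat over vehicle, and brackets hold exact 95% intervals that cover counting error only. Differences are therefore between 2 libraries and cannot be told apart from differences between animals, dissections or library preparations. Barcodes that end in CTRL were taken as vehicle, since the other 3 library names match the 3 drugs. All drug libraries share this vehicle library, and panobinostat and ruxolitinib values are given only side by side.

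The givinostat library held 45075309 UMIs (unique molecular identifiers, counted transcripts) and the vehicle library 40627826. The shallowest givinostat cell had 5272 UMIs and the shallowest vehicle cell 3723. A total of 1068 vehicle cells lay below the lowest givinostat cell, and 526 of these were among the 784 vehicle T-like cells. The median mitochondrial share was 6.33% in givinostat cells and 11.4% in vehicle cells, and 2 barcodes occurred in both libraries. Scrublet called 3 givinostat and 2 vehicle cells as doublets, too few to count as a working call, and no cell was removed as a doublet. A cluster of 49 givinostat and 62 vehicle cells, nearest to T cells, had a median doublet score of 0.267. It was left unnamed for that score, so its cells count in the library and in no class. Tpm3-rs7, a tropomyosin gene copy, split the libraries in pairs, at 53.8 CPM (UMIs scaled to a common total per library) with givinostat, 3.96 with panobinostat, 53.8 with ruxolitinib and 4.14 with vehicle. Haemoglobin RNA also differed, with Hbb-bs at 6128 CPM with givinostat, 5803 with panobinostat, 11093 with ruxolitinib and 460.3 with vehicle. The part of these library differences in the results below was not tested.

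Lymphocyte-like cells made up more of all cells in the givinostat library, and distal convoluted tubule-like and principal or connecting tubule-like cells less. Cells were clustered over all 4 libraries and named X-like from marker genes, since no protein or position was measured. The 10 T markers summed to 4976 CPM with givinostat and 4904 with vehicle in T-like cells, against 10.5 and 8.36 in proximal tubule-like cells. T-like cells numbered 830 with givinostat and 784 with vehicle, 23.9% and 19.9% of all kept cells, a share ratio of 1.198 [1.09 to 1.32]. Among leukocyte-like cells alone the T-like share was lower, at 48.7% with givinostat and 53.9% with vehicle. Leukocyte-like cells as a whole were 1.32 [1.23 to 1.42] times their vehicle share, so the direction for T-like cells depends on the denominator. Natural killer (NK)-like cells numbered 101 and 56 (ratio 2.04 [1.46 to 2.88]; 1.54 [1.101 to 2.18] among leukocyte-like cells), and B or plasma-like cells 53 and 22 (2.73 [1.63 to 4.71]). Both classes were higher with givinostat under either denominator. So were monocyte-like cells, at 305 and 155 (2.23 [1.83 to 2.72] of all cells and 1.68 [1.38 to 2.05] of leukocyte-like cells). NK-like cells were 2.91% of all cells with givinostat, 2.43% with panobinostat, 1.71% with ruxolitinib and 1.42% with vehicle. In the same order B or plasma-like cells were 1.53%, 1.21%, 1.88% and 0.56%, and monocyte-like cells 8.78%, 5.91%, 5.78% and 3.94%. Vehicle was the lowest of the 4 libraries for each of these. T-like cells were 10.5% with panobinostat and 15.4% with ruxolitinib, both below vehicle. Dendritic-like cells numbered 232 and 285, a ratio of 0.921 [0.771 to 1.1] of all cells and 0.695 [0.582 to 0.83] of leukocyte-like cells. Named dendritic subsets held 153 givinostat and 208 vehicle cells of these (0.833 [0.671 to 1.03] of all cells). The rest lay in mixed or unnamed clusters.

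Among dendritic-like cells, 2 subsets held a smaller share of all cells with givinostat, with intervals below 1. Type 2-like cells, which carry Cd209a, numbered 92 and 92 (1.13 [0.839 to 1.53] of all cells and 0.854 [0.633 to 1.15] of leukocyte-like cells). Type 1-like cells, which carry the chemokine receptor Xcr1, numbered 35 and 50 (0.792 [0.499 to 1.25] of all cells and 0.598 [0.377 to 0.94] of leukocyte-like cells). Plasmacytoid-like cells, the Siglech-bearing producers of type I interferon, numbered 25 and 54 (0.524 [0.312 to 0.857]). Mature migratory-like cells with Ccr7 and Fscn1 numbered 1 and 12 (0.0943 [0.00221 to 0.638]). Of all cells, the plasmacytoid-like and mature migratory-like intervals lie below 1, and those of the type 1-like and type 2-like subsets include 1. Among leukocyte-like cells the type 1-like interval also lies below 1.

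Distal convoluted tubule-like cells numbered 51 and 98 in the givinostat and vehicle libraries, a ratio of 0.589 [0.411 to 0.835] of all cells and 0.792 [0.553 to 1.12] of tubule-like cells. Principal or connecting tubule-like cells, the water- and sodium-handling cells downstream, numbered 29 and 88, with 0.373 [0.236 to 0.573] and 0.501 [0.318 to 0.7705]. The second class was lower under both denominators, and the interval of the first includes 1 within tubule-like cells. Thick ascending limb-like cells numbered 155 and 208 (0.843 [0.681 to 1.04]) and intercalated-like cells 46 and 48 (1.08 [0.708 to 1.66]), and both intervals include 1.

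**Figure D1:**
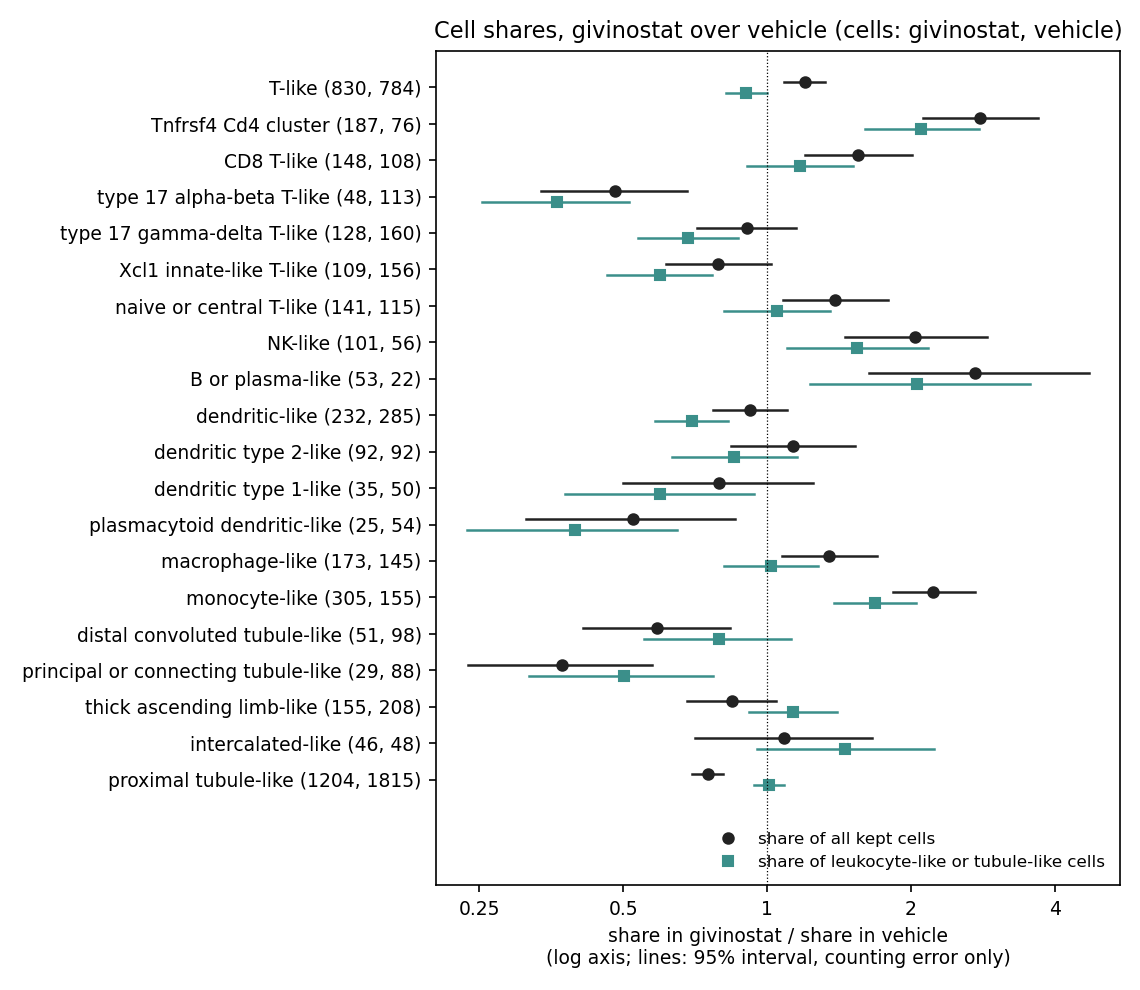
Ratio of each class's share of cells, givinostat over vehicle, on a log axis. Black circles are shares of all kept cells, teal squares shares of leukocyte-like or of tubule-like cells, lines are 95% intervals for counting error, and the numbers beside each name are givinostat and vehicle cells. The Tnfrsf4 Cd4 cluster and the NK-like, B or plasma-like and monocyte-like classes lie right of 1 with their intervals on both measures, and the type 17 alpha-beta T-like, plasmacytoid dendritic-like and principal or connecting tubule-like classes left of 1.

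The make-up of the T-like cells differed most in a cluster led by Tnfrsf4 and Cd4 and in the type 17 alpha-beta T-like subset. The first carries genes of CD4 helper cells but met no marker set clearly, so it is called the Tnfrsf4 Cd4 cluster after its leading genes. It held 22.5% of T-like cells with givinostat, 14.1% with panobinostat, 12.6% with ruxolitinib and 9.69% with vehicle, or 187 givinostat and 76 vehicle cells. The type 17 alpha-beta T-like subset, with Il17a, Il17f and Ccr6, held 5.78% with givinostat, 2.16% with panobinostat, 7.01% with ruxolitinib and 14.4% with vehicle, or 48 givinostat and 113 vehicle cells. The vehicle library was thus lowest of the 4 for the first and highest for the second. Counted together, these 2 groups held 235 givinostat and 189 vehicle cells, a share ratio of 1.41 [1.16 to 1.71].

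The UMI floor bears on these counts. With only cells of at least 5272 UMIs in both libraries, the Tnfrsf4 Cd4 cluster held 187 givinostat and 22 vehicle cells and the type 17 alpha-beta T-like subset 48 and 26. Of all cells above that floor, the share ratio of the type 17 alpha-beta T-like subset was then 1.52, against 0.481 without it, so its direction turned. With a floor at the same fraction of proximal tubule-like depth it was 0.527. Among T-like cells above the 5272 floor, a measure added after seeing the data, the subset held 5.78% with givinostat and 10.1% with vehicle (0.574 [0.349 to 0.964]) and the Tnfrsf4 Cd4 cluster 22.5% with givinostat and 8.53% with vehicle. The labels do not mention such a floor, and its part in the T-like shares was not tested beyond these values.

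CD8 T-like cells held 17.8% of T-like cells with givinostat, 20.1% with panobinostat, 17.1% with ruxolitinib and 13.8% with vehicle. Type 17 gamma-delta T-like cells, with Il17a and Trdc, held 15.4% with givinostat, 7.36% with panobinostat, 17.5% with ruxolitinib and 20.4% with vehicle. Innate-like T-like cells with Xcl1 held 13.1% with givinostat, 22.9% with panobinostat, 15.0% with ruxolitinib and 19.6% with vehicle. Givinostat thus lay above vehicle for the CD8 T-like subset and below it for both others. Naive or central T-like cells, with Ccr7 and Lef1, held 16.99% with givinostat and 14.7% with vehicle, and the 2 intervals overlap. Among T-like cells above the 5272 UMI floor the gamma-delta subset held 15.4% with givinostat and 10.9% with vehicle and the naive or central subset 16.99% with givinostat and 20.5% with vehicle, so both directions turned. The CD8 T-like subset held 17.8% with givinostat and 15.9% with vehicle above the floor and the Xcl1 subset 13.1% with givinostat and 18.6% with vehicle.

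**Figure D2:**
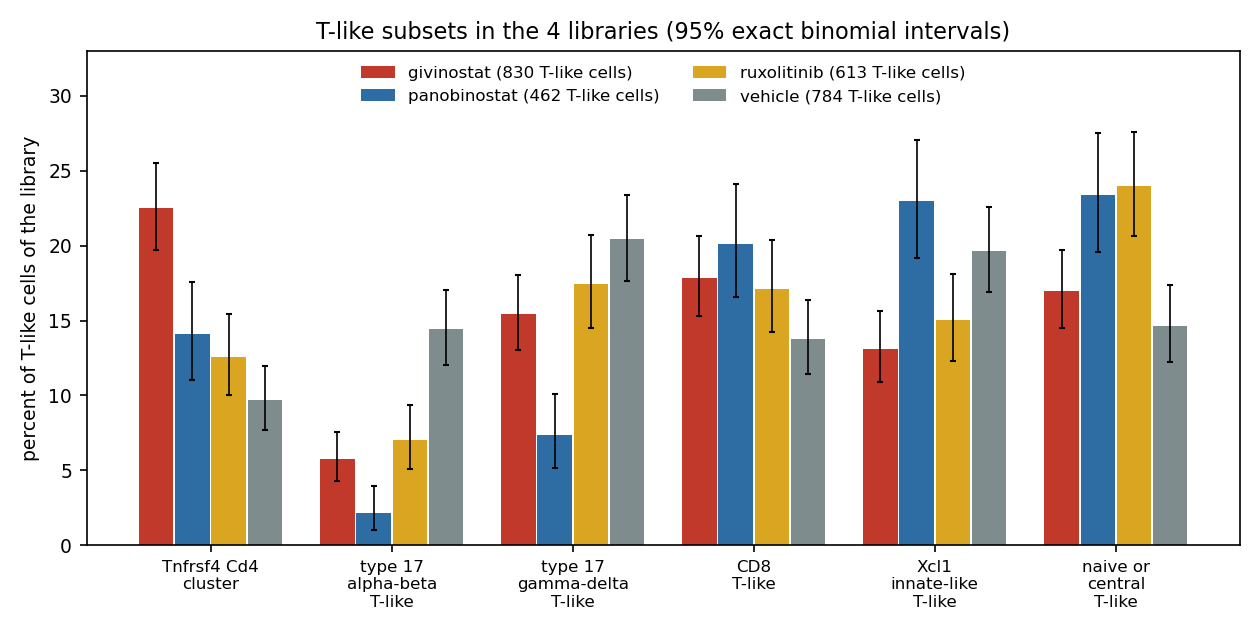
Share of T-like cells in 6 subsets (y axis, percent of T-like cells of each library), with bars for givinostat, panobinostat, ruxolitinib and vehicle and exact 95% binomial intervals. The Tnfrsf4 Cd4 cluster is 22.5% with givinostat and 9.69% with vehicle, and the type 17 alpha-beta T-like subset 5.78% and 14.4%.

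Across T-like cells as a whole, cytotoxic, regulatory and interferon response genes were among the higher genes with givinostat, and genes of the type 17 programme among the lower. UMIs were summed per library and class and scaled to CPM within that class. A gene is called measured at 10 CPM or more in 1 of the 2 libraries with at least 10 UMIs over both, and past 1.5-fold on log2(CPM + 5). Of 7782 genes measured in T-like cells, 155 were past 1.5-fold higher (1.99%) and 52 past 1.5-fold lower (0.668%), with a median log2 ratio of 0.07. Of the regulatory T list, 6 of 16 measured (20 listed) were higher and 0 lower, median 0.43. Of the checkpoint and costimulatory list, 5 of 11 measured (14 listed) were higher and 0 lower, median 0.49, and of the cytotoxic list 5 of 17 (18 listed), median 0.21. Of 19 type 17 genes, all measured, 1 was higher and 4 lower, median -0.04: Csf2 was the higher one, and Ccr6, Il17re, Tmem176a and Tmem176b the lower ones. Of the cytokine and chemokine list, 4 of 9 measured (28 listed) were higher and 0 lower, median 0.37. These were Ccl3 and Ccl4 and 2 genes of myeloid cells, Cxcl2 and Il1b, and neutrophil markers summed to 179 CPM with givinostat and 40.3 with vehicle in T-like cells. Of the antigen receptor early response list, 1 of 14 measured (15 listed) was higher, Egr1 at 398 CPM with givinostat and 226 with vehicle, and 0 lower, median 0.24.

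Gzmb, at chr14:56258838-56262260 on the minus strand (GRCm38), encodes the killing protease granzyme B. It was at 170.0 CPM with givinostat, 85.2 with panobinostat, 215 with ruxolitinib and 44.2 with vehicle in T-like cells (3.85 [3.29 to 4.52]). Gzma, a related granzyme, was at 152 CPM with givinostat and 94.3 with vehicle, and Ccl4, a chemokine of activated lymphocytes, at 510.3 CPM with givinostat and 253 with vehicle. Prf1, the pore-forming perforin, was at 26.3 CPM with givinostat and 28.1 with vehicle, and Ifng, encoding interferon gamma, at 182 CPM with givinostat and 195 with vehicle. The granzymes and Ccl4 were thus higher with givinostat, while perforin and interferon gamma were close to equal. Gzmb was high in the givinostat and ruxolitinib libraries and lower in the other 2, the same split as Tpm3-rs7, and a link between the 2 was not tested.

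Of the checkpoint genes, Ctla4, an inhibitory receptor, was at 299 CPM with givinostat, 165 with panobinostat, 173 with ruxolitinib and 185 with vehicle (1.62 [1.49 to 1.76]). Tnfrsf4, the costimulatory receptor OX40, was at 108 CPM with givinostat, 77.3 with panobinostat, 42.6 with ruxolitinib and 62.4 with vehicle (1.73 [1.504 to 2.005]), and Areg, an epithelial growth factor made by tissue T cells, at 143 CPM with givinostat, 44.2 with panobinostat, 48.4 with ruxolitinib and 86.9 with vehicle (1.64 [1.46 to 1.86]). Givinostat had the highest level of the 4 libraries for all 3. Within the Tnfrsf4 Cd4 cluster Tnfrsf4 was at 291 CPM with givinostat and 257 with vehicle and Areg at 237 CPM with givinostat and 236 with vehicle, close to equal. Ctla4 was higher inside other subsets too, at 158 CPM with givinostat and 66.9 with vehicle in type 17 gamma-delta T-like cells, 93.5 CPM with givinostat and 37.6 with vehicle in naive or central T-like cells and 2292 CPM with givinostat and 1305 with vehicle in the 24 and 20 regulatory T-like cells.

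The lower T-like genes were led by Pxdc1, Tmem176a, Rrad, Tmem176b, Rgcc and Klf4. Tmem176a and Tmem176b encode membrane channels recorded in type 17 lymphocytes. Tmem176a was at 188 CPM with givinostat, 148 with panobinostat, 231 with ruxolitinib and 359 with vehicle (0.525 [0.487 to 0.566]), and Rgcc, a cell cycle regulator, at 391 CPM with givinostat and 677 with vehicle (0.578 [0.548 to 0.609]). Inside the type 17 subsets Rgcc was at 1037 CPM with givinostat and 1849 with vehicle in the alpha-beta subset and 895 CPM with givinostat and 1201 with vehicle in the gamma-delta subset. Tmem176a was at 615 CPM with givinostat and 852 with vehicle in the alpha-beta subset and 809 CPM with givinostat and 1007 with vehicle in the gamma-delta subset. All 4 values were below vehicle, and that of Rgcc in the alpha-beta subset was past 1.5-fold. Klf4, a transcription factor that restrains T cell proliferation, was at 261 CPM with givinostat and 654 with vehicle in the alpha-beta subset (0.399 [0.318 to 0.498]). Subset shares and levels inside subsets thus both differed between the libraries. Within-subset values of genes outside each subset's 6 highest and 6 lowest were looked up after the T-like values were seen.

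In CD8 T-like cells, the killer cells that recognise peptides on MHC class I, Gzmb stood apart from the other cytotoxic genes. It was at 500.5 CPM with givinostat, 161 with panobinostat, 588 with ruxolitinib and 103 with vehicle, a ratio of 4.87 [3.71 to 6.495]. Of the CD8 T-like cells 48.6% held a Gzmb UMI with givinostat and 18.5% with vehicle. After each cell was thinned to 5272 UMIs, the shares were 44.6% of 148 givinostat cells and 14.6% of the 41 vehicle cells deep enough. In proximal tubule-like cells, which should lack the gene, 1.495% of givinostat and 0.331% of vehicle cells held one, at median depths of 12941.5 and 9822 UMIs per cell, against 7325 and 4887 in CD8 T-like cells. The shares in CD8 T-like cells lie above that background in both libraries, and the thinned intervals do not overlap.

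Other genes of the killing machinery in CD8 T-like cells were close to equal. Gzmk was at 159.6 CPM with givinostat and 144 with vehicle, Prf1 at 63.3 CPM with givinostat and 67.3 with vehicle, Nkg7, a granule membrane protein, at 2016 CPM with givinostat and 2282 with vehicle and Ccl5 at 10078 CPM with givinostat and 10198 with vehicle. Of the cytotoxic list, 2 of 17 measured (18 listed) were past 1.5-fold higher and 0 lower, median 0.09. Among all 7774 genes measured in this subset 11.4% were higher and 5.85% lower, median 0.09, the same median as the list. The 2 were Gzmb and Ccl4, at 1984 CPM with givinostat and 1189 with vehicle. Fgl2, Hist1h1c, March7 and Nsrp1 were the other highest named genes beside Tpm3-rs7. Among the lowest, Il7r, the interleukin 7 receptor of resting and memory T cells, was at 78.1 CPM with givinostat and 129 with vehicle (0.604 [0.438 to 0.833]), and Cxcl10 at 69.4 CPM with givinostat and 136 with vehicle.

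Xcl1 innate-like T-like cells showed the same Gzmb difference. Gzmb was at 299 CPM with givinostat, 158 with panobinostat, 372 with ruxolitinib and 58.3 with vehicle (5.13 [3.74 to 7.19]). A UMI was held by 42.2% of givinostat and 10.9% of vehicle cells, and after thinning by 33.9% of 109 and 16.7% of 48. In this subset 1 givinostat cell gave 29.96% of the givinostat UMIs, and the thinned intervals overlap, so this subset rests on fewer cells than the CD8 T-like one. Neutrophil markers summed to 1325 CPM with givinostat and 48.1 with vehicle in this subset, and their part in the result was not tested. Of the cytotoxic list, 6 of 17 measured (18 listed) were higher and 1 lower, median 0.27, against 11.6% higher and 6.80% lower of 7999 genes and a median of 0.06. Klrk1, the activating receptor NKG2D, was at 596 CPM with givinostat and 389 with vehicle, Ccl3 at 170.0 CPM with givinostat and 64.6 with vehicle, with 31.5% of its givinostat UMIs from 1 cell, and Klrc1 at 81.5 CPM with givinostat and 46.9 with vehicle. Xcl1 itself, the chemokine that attracts Xcr1-bearing dendritic cells, was at 2283 CPM with givinostat and 2217 with vehicle, and Ifng at 411 CPM with givinostat and 512 with vehicle. Irf8, a member of the interferon regulatory factor family, was among the highest at 148 CPM with givinostat and 50.7 with vehicle, and Socs2, a feedback inhibitor of cytokine signals, among the lowest at 60.5 CPM with givinostat and 108 with vehicle.

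Type 17 gamma-delta T-like cells had more Il17a and less Lgals3 with givinostat. Lgals3, at chr14:47367751-47386160 on the plus strand, encodes galectin 3, a sugar-binding protein made by macrophages and activated lymphocytes. It was at 168 CPM with givinostat, 698 with panobinostat, 404 with ruxolitinib and 876 with vehicle (0.191 [0.16 to 0.228]). A UMI was held by 43.0% of givinostat and 86.2% of vehicle cells, and after thinning by 39.1% of 128 and 78.6% of 28. In proximal tubule-like cells the shares were 7.89% and 7.49%, and after thinning 3.654% and 3.648%. Vehicle thus had the highest Lgals3 level of the 4 libraries and givinostat the lowest.

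Lgals3 was also lower in other T-like subsets, which were looked up after this value was seen. It was at 105 CPM with givinostat, 402 with panobinostat, 276 with ruxolitinib and 441 with vehicle in the type 17 alpha-beta subset (0.239 [0.168 to 0.333]), at 90.2 CPM with givinostat, 147 with panobinostat, 172 with ruxolitinib and 214 with vehicle in CD8 T-like cells (0.421 [0.321 to 0.551]), and at 81.5 CPM with givinostat, 109 with panobinostat, 145 with ruxolitinib and 217 with vehicle in Xcl1 innate-like cells (0.376 [0.281 to 0.4995]). Givinostat was lowest of the 4 libraries in each of these. In the Tnfrsf4 Cd4 cluster it was at 52.1 CPM with givinostat, 61.8 with panobinostat, 114 with ruxolitinib and 92.5 with vehicle (0.563 [0.376 to 0.859]), held by 22.99% of givinostat and 26.3% of vehicle cells. In naive or central T-like cells it was at 17.5 CPM with givinostat and 6.27 with vehicle (2.79 [0.934 to 11.2]) and in NK-like cells at 132 CPM with givinostat and 175 with vehicle (0.757 [0.537 to 1.08]), and both intervals include 1. Outside lymphocytes the directions differed: Lgals3 was at 650.1 CPM with givinostat and 1198 with vehicle in macrophage-like cells, 1175 CPM with givinostat and 1028 with vehicle in dendritic type 2-like cells and 674 CPM with givinostat and 464 with vehicle in thick ascending limb-like cells.

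Il17a, the cytokine that defines these cells, was at 2753 CPM with givinostat, 1452 with panobinostat, 1887 with ruxolitinib and 1334 with vehicle in the gamma-delta subset (2.06 [1.92 to 2.22]). In the alpha-beta subset it was at 1539.6 CPM with givinostat, 849 with panobinostat, 2255 with ruxolitinib and 1604 with vehicle (0.9599 [0.865 to 1.06]). Givinostat thus exceeded vehicle in the gamma-delta subset and was close to it in the alpha-beta subset, while fewer alpha-beta cells were counted. Over all T-like cells Il17a was at 472 CPM with givinostat and 464 with vehicle. Thinned to 5272 UMIs, 68.8% of 128 givinostat and 28.6% of 28 vehicle gamma-delta cells held an Il17a UMI, against 71.1% and 55.0% before thinning.

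The gamma-delta class joins 2 clusters, with 93 givinostat and 95 vehicle cells in the first and 35 and 65 in the second. Il17a was at 3760.3 CPM with givinostat and 2045 with vehicle in the first (1.84 [1.704 to 1.99]) and 277 CPM with givinostat and 343 with vehicle in the second (0.809 [0.595 to 1.09]), so the higher level was in the first cluster alone. Lgals3 was at 165 CPM with givinostat and 992 with vehicle in the first (0.166 [0.134 to 0.205]) and 175 CPM with givinostat and 713 with vehicle in the second (0.245 [0.176 to 0.336]), lower in both. Genes that mark the class were higher too: Trdc, the delta chain constant segment, was at 1162 CPM with givinostat and 834 with vehicle over the class, and Tcrg-C1, a gamma chain constant segment, at 460 CPM with givinostat and 240.2 with vehicle.

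Of the type 17 list, 5 of 18 measured (19 listed) were higher and 0 lower in the gamma-delta subset, median 0.25. Among 8025 genes measured there 11.3% were higher and 6.44% lower, median 0.08. Besides Il17a, Irf4, a transcription factor required for type 17 differentiation, was at 99.1 CPM with givinostat and 49.9 with vehicle, Cd163l1, a scavenger receptor of gamma-delta cells, at 293 CPM with givinostat and 158 with vehicle, and Il1r1, the receptor through which interleukin 1 drives them, at 123 CPM with givinostat and 70.9 with vehicle. The fifth, Csf2, drew 50% of its givinostat UMIs from 1 cell. Pdcd1, encoding the inhibitory receptor PD-1, was at 113 CPM with givinostat, 42.3 with panobinostat, 50.9 with ruxolitinib and 36.8 with vehicle (3.07 [2.01 to 4.83]), and Tnfrsf9, the costimulatory receptor 4-1BB, at 79.1 CPM with givinostat and 18.4 with vehicle. Cd28, the main costimulatory receptor, was lower at 101 CPM with givinostat and 198 with vehicle, and Cd27 at 5.27 CPM with givinostat and 23.6 with vehicle. Of the checkpoint and costimulatory list, 5 of 9 measured (14 listed) were higher and 3 lower, median 0.66, and with no minimum on low genes the median was -0.030. Trdv4, a delta chain variable segment, was at 142 CPM with givinostat and 34.1 with vehicle (4.17 [2.73 to 6.61]), and Gcnt2, a glycan-branching enzyme, at 193 CPM with givinostat and 61.7 with vehicle. Ctla2a, a protease inhibitor of activated T cells, was at 69.6 CPM with givinostat and 176 with vehicle, and Rrad, a small GTPase, at 86.5 CPM with givinostat and 219 with vehicle, both among the lowest. Areg, among the highest, drew 51.6% of its givinostat UMIs from 1 cell, and Ccl5, among the lowest, 89.6% of its vehicle UMIs from 1 cell. Neutrophil markers summed to 15.8 CPM with givinostat and 108 with vehicle in the gamma-delta subset.

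**Figure D3:**
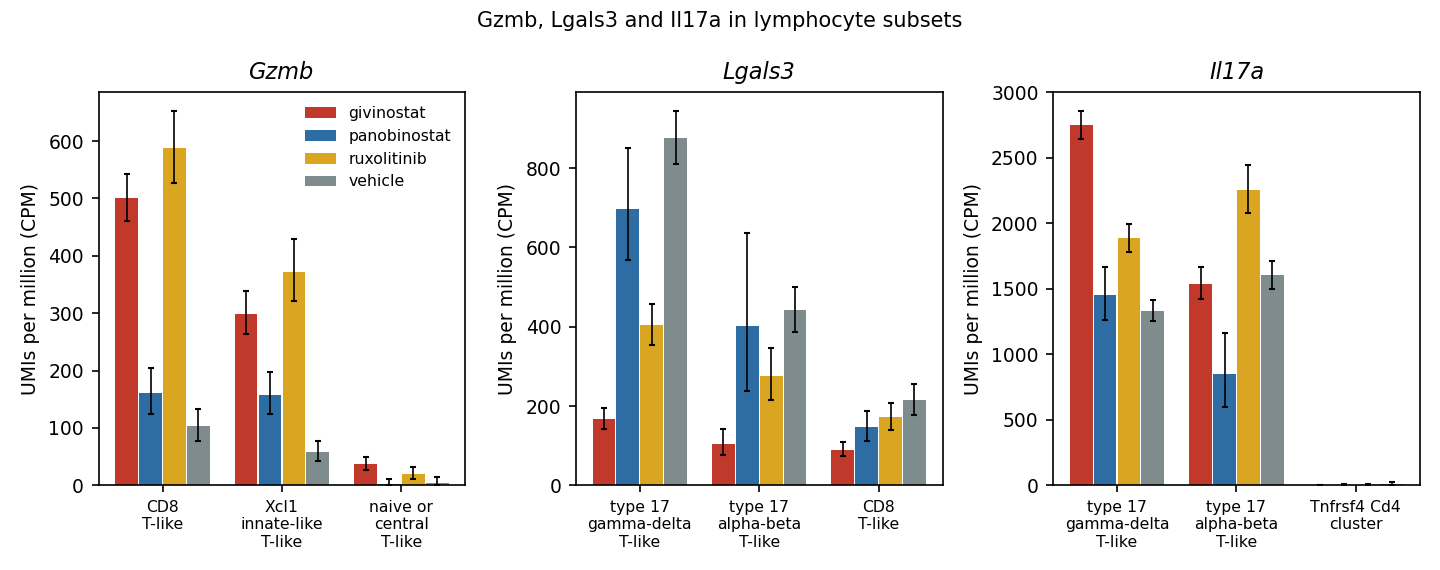
Levels of Gzmb, Lgals3 and Il17a (y axis, CPM within the subset) in 3 T-like subsets each, with bars for givinostat, panobinostat, ruxolitinib and vehicle and exact 95% Poisson intervals for counting error. In CD8 T-like cells Gzmb was at 500.5 CPM with givinostat and 103 with vehicle, and in gamma-delta cells Lgals3 was at 168 and 876 and Il17a at 2753 and 1334.

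The Tnfrsf4 Cd4 cluster, larger with givinostat, also differed in levels. Cd4 was at 294 CPM with givinostat and 216 with vehicle and Foxp3, the master factor of regulatory T cells, at 4.501 CPM with givinostat and 0 with vehicle, with 7 UMIs in the first library. Cd40lg, the helper signal to B cells, was at 169 CPM with givinostat and 118 with vehicle (1.43 [1.04 to 2.003]), and Tnfsf11, the cytokine RANKL, at 248 CPM with givinostat and 175 with vehicle (1.42 [1.096 to 1.87]). Egr1, an early response gene of antigen receptor signalling, was at 676 CPM with givinostat, 432 with panobinostat, 609.7 with ruxolitinib and 211 with vehicle (3.21 [2.56 to 4.07]). Vehicle was the lowest of the 4 libraries for Egr1. Il2, the T cell growth factor, was at 52.1 CPM with givinostat and 17.98 with vehicle (2.897 [1.34 to 7.43]), and Rel, a subunit of NF-kappa B, at 249 CPM with givinostat and 157 with vehicle (1.59 [1.21 to 2.12]). In this cluster haemoglobin genes summed to 1852 CPM with givinostat and 43.7 with vehicle, macrophage markers to 58.5 and 10.3 and thick ascending limb markers to 152 and 51.4, and their part in these levels was not tested.

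Of the antigen receptor early response list, 5 of 14 measured (15 listed) were higher in this cluster and 0 lower, median 0.10, against 13.9% higher and 7.89% lower of 8001 genes and a median of 0.05. Nr4a1, the early gene used as a reporter of receptor signalling, was at 548 CPM with givinostat and 431 with vehicle and Cd69 at 559 CPM with givinostat and 701 with vehicle, neither past 1.5-fold. Egr1 was also higher in Xcl1 innate-like cells, at 731 CPM with givinostat and 337 with vehicle, and in naive or central T-like cells, at 164 CPM with givinostat and 79.9 with vehicle. In dendritic type 2-like cells it was at 469 CPM with givinostat and 700.3 with vehicle, with vehicle the higher one. Trim30a, an interferon-induced regulator, was at 145 CPM with givinostat and 59.1 with vehicle, and Tmem64 at 244 CPM with givinostat and 97.6 with vehicle, both among the highest. Among the lowest were Trbc1, a T cell receptor constant segment, at 707 CPM with givinostat and 1356 with vehicle, and Il10, of which 1 vehicle cell gave 44.9% of the vehicle UMIs.

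In naive or central T-like cells no recirculation gene was past 1.5-fold. Of 9 genes for residence in lymphoid tissue, all measured, 0 were past 1.5-fold in either direction, median 0.24, beside 13.0% higher and 5.66% lower of 7037 genes and a median of 0.11. Ccr7, which guides cells into lymph nodes, was at 927 CPM with givinostat and 686 with vehicle and S1pr1, the receptor for exit from lymph nodes, at 518 CPM with givinostat and 379 with vehicle. Satb1, a chromatin organiser of T cells, came nearest to the threshold at 1082 CPM with givinostat and 733 with vehicle (1.48 [1.33 to 1.64]). Myb, a transcription factor of immature and memory cells, was among the highest at 148 CPM with givinostat and 64.3 with vehicle (2.298 [1.63 to 3.32]), and Rrad among the lowest at 51.5 CPM with givinostat and 135 with vehicle (0.382 [0.2698 to 0.539]).

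NK-like cells, innate killers without a T cell receptor, held more RNA of proliferation genes and less of cytokine feedback genes with givinostat. Of the proliferation list, 11 of 15 measured (18 listed) were higher and 0 lower, median 1.04, among 7598 genes of which 17.5% were higher and 9.20% lower, with a median of 0.05. Mki67, a marker of dividing cells, was at 37.9 CPM with givinostat, 50.04 with panobinostat, 8.42 with ruxolitinib and 3.56 with vehicle (10.6 [1.78 to 433]), with 1 vehicle UMI. Pcna, the replication clamp, was at 129.9 CPM with givinostat, 90.99 with panobinostat, 95.4 with ruxolitinib and 64.2 with vehicle, and Top2a, which untangles replicated DNA, at 55.2 CPM with givinostat, 34.1 with panobinostat, 16.8 with ruxolitinib and 17.8 with vehicle. Panobinostat and givinostat lay above ruxolitinib and vehicle for Mki67 and Top2a. These levels rest on few cells: 9.90% of 101 givinostat and 1.79% of 56 vehicle NK-like cells held an Mki67 UMI, and without the highest cell of each library the list median was 0.61.

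Of the STAT feedback list, 4 of 9 measured (10 listed) were lower in NK-like cells and 0 higher, median -0.55. Cish, a feedback inhibitor induced by interleukin 2 and 15, was at 25.3 CPM with givinostat, 27.3 with panobinostat, 30.9 with ruxolitinib and 74.9 with vehicle (0.338 [0.177 to 0.646]), Socs3 at 180.5 CPM with givinostat, 171 with panobinostat, 208 with ruxolitinib and 296 with vehicle (0.61 [0.465 to 0.806]), Bcl2, a survival gene, at 282 CPM with givinostat, 450.4 with panobinostat, 491 with ruxolitinib and 528 with vehicle (0.534 [0.434 to 0.659]) and Bcl6, a repressor, at 12.6 CPM with givinostat, 13.6 with panobinostat, 2.81 with ruxolitinib and 39.2 with vehicle. Vehicle was the highest of the 4 libraries for each of these. The killing programme of NK-like cells showed no such difference: of the cytotoxic list 0 of 17 measured (18 listed) were past 1.5-fold, median -0.04. Gzma was at 8287 CPM with givinostat and 7949 with vehicle, Prf1 at 748 CPM with givinostat and 934 with vehicle and Gzmb at 1370.4 CPM with givinostat and 998 with vehicle (1.37 [1.204 to 1.57]). Cma1, a chymase gene, was among the highest at 148 CPM with givinostat and 39.2 with vehicle, and Serpina3g, a serpin of activated lymphocytes, among the lowest at 118 CPM with givinostat and 246 with vehicle. Neutrophil markers summed to 10.3 CPM with givinostat and 99.8 with vehicle in NK-like cells and B or plasma markers to 36.8 and 7.13, and their part in these levels was not tested.

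B or plasma-like cells held a larger part of B cell RNA and a smaller part of plasma cell RNA with givinostat, over 53 givinostat and 22 vehicle cells. Ms4a1, encoding CD20 of B cells, was at 469 CPM with givinostat, 420.1 with panobinostat, 454 with ruxolitinib and 173 with vehicle (2.71 [1.92 to 3.91]), and Cd79a, part of the B cell receptor, at 1408 CPM with givinostat, 1199 with panobinostat, 1205 with ruxolitinib and 778 with vehicle (1.81 [1.53 to 2.15]). Jchain, which joins secreted IgA and IgM, was at 7461 CPM with givinostat, 11602 with panobinostat, 14596 with ruxolitinib and 25594 with vehicle (0.291 [0.279 to 0.304]). The vehicle library was lowest of the 4 for both B cell genes and highest for Jchain. The class joins a cluster led by Igkc and Cd79a, with 46 givinostat and 13 vehicle cells, and one led by Igkc, Igha and Jchain, with 7 and 9. Inside the first Ms4a1 was at 598 CPM with givinostat and 512 with vehicle (1.17 [0.821 to 1.7]), and inside the second Jchain was at 24636 CPM with givinostat and 38178 with vehicle (0.645 [0.618 to 0.673]). These genes were chosen after the cell counts were seen, and fewer than 50 vehicle cells stand behind them.

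Dendritic type 2-like cells, 92 in each library, differed in genes of antigen loading and of their lectin markers. H2-DMb2 (chr17:34143307-34151555, plus strand), a chain of the chaperone that loads peptides onto MHC class II, was at 157 CPM with givinostat, 200.4 with panobinostat, 177 with ruxolitinib and 335 with vehicle (0.468 [0.3902 to 0.561]). A UMI was held by 55.4% of givinostat and 80.4% of vehicle cells, and after thinning by 37.0% of 92 and 72.0% of 82. In proximal tubule-like cells the shares were 2.08% and 2.31%. H2-Oa, a chain of the counter-chaperone that restrains loading, was at 166 CPM with givinostat, 158 with panobinostat, 141 with ruxolitinib and 283 with vehicle (0.587 [0.488 to 0.706]). For both genes vehicle stood above all 3 drug libraries, which lay close together. The presenting molecules themselves differed less: H2-Aa was at 11248 CPM with givinostat and 13352 with vehicle, H2-Ab1 at 12469 CPM with givinostat and 13641 with vehicle and Cd74, the invariant chain, at 20039 CPM with givinostat and 25214 with vehicle. Of 10 MHC class II genes, all measured, 2 were past 1.5-fold lower and 0 higher, median -0.27, among 7764 genes of which 8.58% were higher and 5.22% lower, with a median of 0.07.

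Mgl2 (chr11:70130329-70137550, plus strand), a lectin of type 2 dendritic cells, was at 417 CPM with givinostat, 883 with panobinostat, 717 with ruxolitinib and 959 with vehicle (0.435 [0.3897 to 0.484]), held by 44.6% of givinostat and 60.9% of vehicle cells and after thinning by 35.9% and 59.8%. Other genes of the type 2 list were closer to equal: Cd209a was at 892 CPM with givinostat and 972 with vehicle and Clec10a at 414 CPM with givinostat and 377 with vehicle, and 1 of 10 measured genes was lower and 0 higher, median -0.01. Trf, the iron carrier transferrin, was at 62.7 CPM with givinostat, 123 with panobinostat, 82.6 with ruxolitinib and 162 with vehicle (0.387 [0.292 to 0.511]), and Clec4n, the fungal receptor dectin 2, at 46.6 CPM with givinostat and 106 with vehicle (0.438 [0.313 to 0.6105]). Both were among the lowest. Macrophage markers summed to 309.6 CPM with givinostat and 434 with vehicle in these cells, T markers (2 of 10 at 0 in both) to 24.5 and 126, neutrophil markers to 86.4 and 5.54, and haemoglobin genes to 1433 and 35.5. Their part in these levels was not tested.

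The highest named genes of dendritic type 2-like cells rested partly on single cells. A single givinostat cell gave 88.2% of the Cxcl9 UMIs and 80.2% of the Cxcl10 UMIs, both chemokines that attract T cells. Ccl4 was at 1253 CPM with givinostat and 582 with vehicle, with 41.0% from 1 cell. Cd7 at 115 CPM with givinostat and 49.9 with vehicle (2.31 [1.65 to 3.31]) and Clec4a1 at 109 CPM with givinostat and 52.1 with vehicle (2.099 [1.5 to 2.98]) were the others. Of the maturation list, 1 of 15 measured (19 listed) was higher and 1 lower, median 0.11. The higher one was Il4i1, an amino acid oxidase, with 37.5% of its givinostat UMIs from 1 cell. The lower one was Ccl17, a chemokine for T cells, with 58.6% of its vehicle UMIs from 1 cell. Ccr7, which guides migration to lymph nodes, was at 86.4 CPM with givinostat and 74.2 with vehicle. Of 13 respiratory chain genes of the mitochondrial genome, 5 were higher and 0 lower, median 0.50, while the median mitochondrial share of all givinostat cells was the lower one.

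The smaller dendritic subsets, under 50 cells in 1 or both libraries, are given as levels only. In plasmacytoid-like cells Siglech, a sialic acid lectin, was at 1779.9 CPM with givinostat, 2297 with panobinostat, 2354 with ruxolitinib and 2554 with vehicle (0.697 [0.631 to 0.769]), Bst2, an interferon-induced surface protein, at 2637 CPM with givinostat and 3296 with vehicle, and Irf7, the regulator of interferon alpha, at 206 CPM with givinostat and 170.1 with vehicle. In type 1-like cells Xcr1 was at 401 CPM with givinostat and 398 with vehicle, Irf8, their lineage factor, at 1474 CPM with givinostat and 1729.6 with vehicle, and Naaa, a lipid amidase, at 1877 CPM with givinostat and 1466 with vehicle. These 6 genes thus lay within 1.5-fold of vehicle. Cxcl9 in type 1-like cells did not, at 26.9 CPM with givinostat and 1.54 with vehicle (17.5 [2.76 to 728]), with 1 vehicle UMI. Levels of mature migratory-like cells are not given, since 1 givinostat cell stands behind them.

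Of the genes induced by interferons, 25 of 29 were past 1.5-fold higher with givinostat in macrophage-like cells, with smaller parts of the list in other leukocyte-like classes and 1 of 25 in CD8 T-like cells. Interferons act through receptor signals on promoters of antiviral genes such as Isg15, Ifit1 and Rsad2 and, for interferon gamma, of GTPases such as Gbp2 and Irgm1. The promoters of 6 of these genes are given here from RefSeq (GRCm38.p6), as the 250 bases before the transcript start, 5′ to 3′ on the gene's strand. Capitals mark the letters searched for the interferon-stimulated response element, GAAA, any 2 bases and GAAA, or on the other strand TTTC, any 2 bases and TTTC, and overlapping matches run together.
Isg15: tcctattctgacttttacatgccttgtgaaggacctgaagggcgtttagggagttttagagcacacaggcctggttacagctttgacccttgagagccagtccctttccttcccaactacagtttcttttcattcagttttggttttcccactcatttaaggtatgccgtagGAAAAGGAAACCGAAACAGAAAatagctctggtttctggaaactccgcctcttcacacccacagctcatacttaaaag
Ifit1: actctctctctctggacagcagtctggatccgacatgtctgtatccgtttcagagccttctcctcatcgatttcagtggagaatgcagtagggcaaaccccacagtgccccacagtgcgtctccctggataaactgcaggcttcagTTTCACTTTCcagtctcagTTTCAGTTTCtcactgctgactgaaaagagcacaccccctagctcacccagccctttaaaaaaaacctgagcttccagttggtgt
Ifit3: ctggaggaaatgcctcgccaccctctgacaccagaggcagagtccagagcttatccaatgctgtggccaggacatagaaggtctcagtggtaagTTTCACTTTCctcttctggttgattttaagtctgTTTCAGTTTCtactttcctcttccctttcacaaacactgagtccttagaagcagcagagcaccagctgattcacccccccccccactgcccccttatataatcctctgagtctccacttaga
Rsad2: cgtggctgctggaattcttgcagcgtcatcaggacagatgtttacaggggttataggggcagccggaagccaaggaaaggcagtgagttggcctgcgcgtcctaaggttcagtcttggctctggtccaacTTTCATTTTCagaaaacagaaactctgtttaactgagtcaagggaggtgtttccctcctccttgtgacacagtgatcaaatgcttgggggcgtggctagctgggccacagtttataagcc
Gbp2: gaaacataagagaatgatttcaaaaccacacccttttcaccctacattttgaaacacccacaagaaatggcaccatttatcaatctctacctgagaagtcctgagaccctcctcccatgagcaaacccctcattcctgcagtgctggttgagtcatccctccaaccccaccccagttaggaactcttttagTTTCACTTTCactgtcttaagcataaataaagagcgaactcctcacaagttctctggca
Irgm1: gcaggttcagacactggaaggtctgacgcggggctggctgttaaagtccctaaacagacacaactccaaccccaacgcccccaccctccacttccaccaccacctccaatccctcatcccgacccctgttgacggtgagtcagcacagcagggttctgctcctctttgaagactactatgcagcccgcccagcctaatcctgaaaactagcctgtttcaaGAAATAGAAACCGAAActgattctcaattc

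These promoters are at chr4:156200819-156201068 (minus strand) for Isg15, chr19:34640639-34640888 (plus) for Ifit1, chr19:34583279-34583528 (plus) for Ifit3, chr12:26456453-26456702 (minus) for Rsad2, chr3:142620413-142620662 (plus) for Gbp2 and chr11:48871421-48871670 (minus) for Irgm1. The matches start 78, 72 and 66 bases before the Isg15 start, 104 and 85 before Ifit1, 156 and 122 before Ifit3, 120 before Rsad2, 59 before Gbp2 and 30 and 24 before Irgm1. Of 29 listed interferon response genes 24 had a promoter that was searched, and 14 of these (58.3%) held a match. For the list, promoters on the chromosome of Iigp1 were left out, while the count over all genes kept them. Over all genes a match was held by 936 of 27025 symbols (3.46%), or 978 of 32851 promoters (2.98%). A match describes the letters and does not show binding.

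In macrophage-like cells 25 of 29 interferon response genes, all measured, were past 1.5-fold higher and 0 lower, median 1.05. Among the 8480 genes measured there 9.53% were higher and 4.29% lower, median 0.06. Isg15, a ubiquitin-like antiviral protein, was at 149 CPM with givinostat, 64.1 with panobinostat, 49.7 with ruxolitinib and 51.5 with vehicle (2.895 [2.16 to 3.95]). Ifit3, which with Ifit1 binds foreign RNA, was at 73.5 CPM with givinostat, 30.9 with panobinostat, 15.5 with ruxolitinib and 15.3 with vehicle (4.82 [2.86 to 8.66]), and Rsad2, the antiviral enzyme viperin, at 67.6 CPM with givinostat, 19 with panobinostat, 28.4 with ruxolitinib and 24.8 with vehicle (2.73 [1.78 to 4.34]). Givinostat was the highest of the 4 libraries for all 3. Gbp2 was at 56.02 CPM with givinostat, 22.6 with panobinostat, 52.9 with ruxolitinib and 17.2 with vehicle (3.26 [1.97 to 5.72]), and here ruxolitinib also lay above panobinostat and vehicle. Cxcl9, an interferon gamma target, was at 58.1 CPM with givinostat, 17.8 with panobinostat, 148 with ruxolitinib and 0 with vehicle, and with 0 vehicle UMIs no ratio is given.

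The macrophage-like list median did not rest on 1 cell: without the highest cell of each library its median was 0.98, and with cells thinned to 5272 UMIs 1.32. Neutrophil markers summed to 494 CPM with givinostat and 1380 with vehicle in macrophage-like cells and haemoglobin genes to 3214 and 3305, and their part in the result was not tested. Of 12 MHC class I genes, which interferons also induce, 2 were higher and 0 lower, median 0.47. H2-Q7 was at 201 CPM with givinostat and 107 with vehicle (1.88 [1.52 to 2.34]) and B2m, the common light chain, at 3935 CPM with givinostat and 2857 with vehicle (1.38 [1.32 to 1.44]). Among the lowest named genes of macrophage-like cells were Arg1, arginase 1 of alternatively activated macrophages, at 9.51 CPM with givinostat, 0 with panobinostat, 47.7 with ruxolitinib and 109.6 with vehicle, Fn1, fibronectin, at 139 CPM with givinostat, 74.8 with panobinostat, 210.3 with ruxolitinib and 526 with vehicle, and Mmp12, an elastase, at 230.4 CPM with givinostat, 255 with panobinostat, 219.9 with ruxolitinib and 715 with vehicle. Vehicle was the highest of the 4 for these, but the highest vehicle cell gave 47.8% of the Arg1, 27.7% of the Fn1 and 32.1% of the Mmp12 UMIs. Pf4, a chemokine of resident macrophages, was at 118 CPM with givinostat and 304 with vehicle (0.389 [0.327 to 0.463]), and Cd9, a tetraspanin, at 107 CPM with givinostat and 285 with vehicle (0.376 [0.313 to 0.451]).

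In monocyte-like cells 14 of 25 measured interferon response genes (29 listed) were higher and 0 lower, median 0.64, among 8137 genes of which 4.92% were higher and 4.07% lower, with a median of 0.03. Irgm1, a GTPase that guards against intracellular pathogens, was at 65.5 CPM with givinostat, 25.3 with panobinostat, 38.1 with ruxolitinib and 22.04 with vehicle (2.97 [1.98 to 4.65]), and Oasl2, an antiviral synthetase relative, at 84.2 CPM with givinostat, 39.8 with panobinostat, 40.6 with ruxolitinib and 41.5 with vehicle (2.03 [1.495 to 2.801]). Givinostat was highest of the 4 for both, yet Isg15 was only at 83.4 CPM with givinostat and 67.8 with vehicle (1.23 [0.958 to 1.59]). Ccl2, the chemokine that calls monocytes, was at 265 CPM with givinostat, 214 with panobinostat, 305 with ruxolitinib and 86.5 with vehicle (3.06 [2.495 to 3.795]), and Vcan, a matrix proteoglycan of classical monocytes, at 153 CPM with givinostat, 111 with panobinostat, 138 with ruxolitinib and 46.6 with vehicle (3.28 [2.49 to 4.41]), both among the highest named genes and lowest in vehicle. The class joins a cluster led by Lyz2, Cybb and Gngt2, with 149 givinostat and 91 vehicle cells, and one led by Lyz2 and Chil3, with 156 and 64. Vcan was at 24.9 CPM with givinostat and 1.46 with vehicle in the first and 257 CPM with givinostat and 109 with vehicle in the second, and Irgm1 at 34.9 CPM with givinostat and 13.1 with vehicle and 90.4 CPM with givinostat and 34.4 with vehicle, so both genes were higher inside each cluster. Isg15 was at 41.1 CPM with givinostat and 59.8 with vehicle in the first and 118 CPM with givinostat and 78.9 with vehicle in the second, in opposite directions. Atp11b, a lipid flippase, was the lowest named gene and split the libraries as Tpm3-rs7 does, at 143 CPM with givinostat, 437 with panobinostat, 128 with ruxolitinib and 449 with vehicle. Of the PPAR target list, fatty acid burning genes, 7 of 14 measured (17 listed) were lower and 0 higher, median -0.67, and without the highest cell of each library the median was -0.44. Angptl4, a secreted lipase inhibitor, drew 50% of its vehicle UMIs from 1 cell. In monocyte-like cells abundant proximal tubule genes summed to 7149 CPM with givinostat and 10503 with vehicle, neutrophil markers to 705 and 279 and haemoglobin genes to 1524 and 38.1, and their part in these results was not tested.

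In dendritic type 2-like cells 13 of 26 measured interferon response genes were higher and 0 lower, median 0.59. A single givinostat cell gave 50.5% of the Isg15 UMIs, while Oas1a, spread over more cells, was at 45.1 CPM with givinostat, 8.47 with panobinostat, 9.83 with ruxolitinib and 18.8 with vehicle (2.39 [1.38 to 4.38]). In NK-like cells 9 of 17 measured were higher and 0 lower, median 0.62, with Irf7 at 101 CPM with givinostat and 53.5 with vehicle (1.89 [1.09 to 3.52]). In the Tnfrsf4 Cd4 cluster 8 of 27 measured were higher and 2 lower, median 0.32, with Gbp2 at 98.4 CPM with givinostat, 46.3 with panobinostat, 41.7 with ruxolitinib and 30.8 with vehicle (3.19 [1.78 to 6.31]). Over all T-like cells 6 of 26 measured were higher and 0 lower, median 0.45, and Ifi27l2a, an interferon-induced gene outside the list, was at 911 CPM with givinostat, 476 with panobinostat, 433 with ruxolitinib and 459 with vehicle (1.98 [1.88 to 2.09]). Of all measured genes, 8.58% were higher and 5.22% lower in dendritic type 2-like cells, and 17.5% and 9.20% in NK-like cells. In T-like cells these shares were 1.99% and 0.668%. In the Tnfrsf4 Cd4 cluster they were 13.9% and 7.89%, so its 2 lower list members are near the share over all genes.

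CD8 T-like cells went another way. There 1 of 25 measured interferon response genes was higher and 4 lower, median 0.01, beside 11.4% higher and 5.85% lower of all measured genes. Isg15 was among the lower ones, at 105 CPM with givinostat, 75.7 with panobinostat, 80.8 with ruxolitinib and 170.1 with vehicle (0.617 [0.468 to 0.815]). Type 17 gamma-delta T-like cells had 4 of 18 higher and 1 lower, median 0.22, Xcl1 innate-like cells 5 of 23 and 1, median 0.23, and naive or central T-like cells 7 of 22 and 1, median 0.12. Of all measured genes 11.3% were higher and 6.44% lower in the gamma-delta subset and 11.6% and 6.80% in the Xcl1 subset. In the naive or central subset the shares were 13.0% and 5.66%. The difference between macrophage-like and CD8 T-like cells has no replicate check. Over the whole library 19 of 25 measured were higher and 0 lower, median 0.80, among 9210 genes of which 5.95% were higher and 1.03% lower, with a median of 0.06. The larger leukocyte-like share enters that last value. Erythroid-like cells enter it too, at 80 givinostat and 11 vehicle cells, a share ratio of 8.23 [4.36 to 17.2]. A cluster of 60 givinostat and 7 vehicle cells of that class has the list members Rsad2 and Isg20 among its leading genes. The part of either class in the value was not tested.

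**Figure D4:**
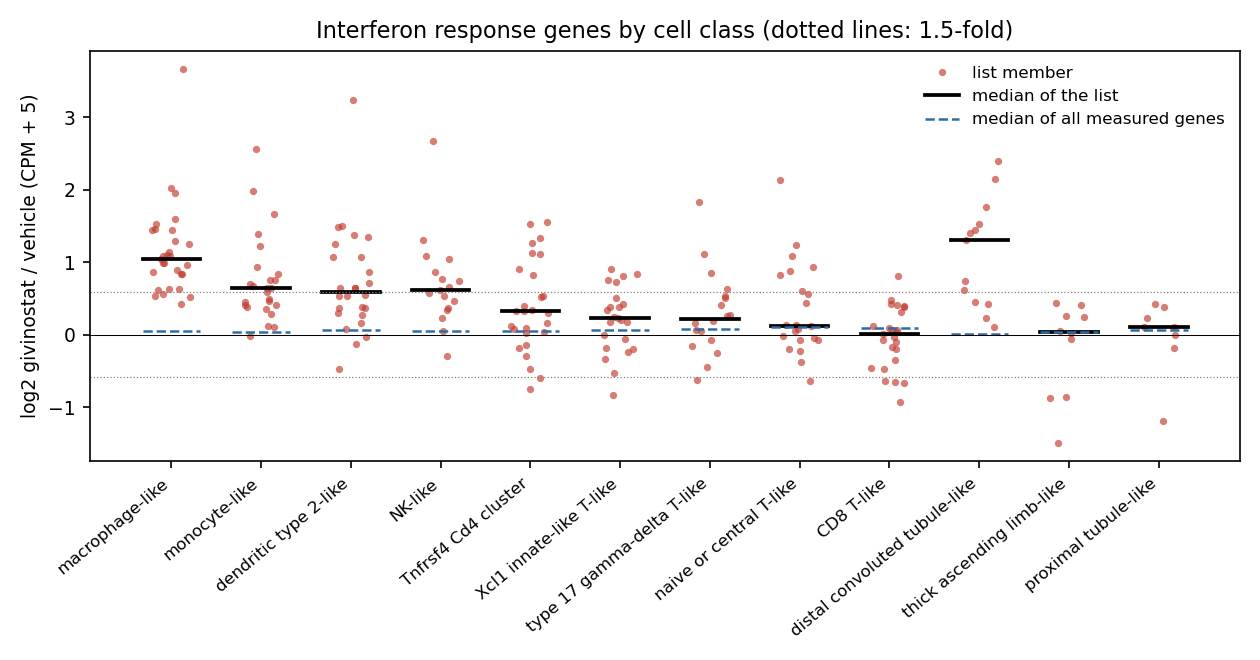
Log2 ratio of CPM + 5, givinostat over vehicle (y axis), for the measured interferon response genes in 12 cell classes. Each point is 1 gene, the black bar is the list's median, the blue dashed bar the median of all measured genes, and dotted lines mark 1.5-fold. The median is 1.05 in macrophage-like, 0.01 in CD8 T-like and 0.03 in thick ascending limb-like cells, and the 1.31 in distal convoluted tubule-like cells rests largely on 1 cell.

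In the distal tubule, S100g was the lowest named gene of the whole library comparison, at 796 CPM with givinostat, 544 with panobinostat, 634 with ruxolitinib and 2061 with vehicle (0.387 [0.382 to 0.391]). The gene lies at chrX:162961992-162964599 on the minus strand and encodes calbindin D9k, which carries calcium through distal cells. Distal convoluted tubule-like cells held 45.7% of its givinostat and 51.5% of its vehicle UMIs. Within those cells it was at 18821 CPM with givinostat, 12197 with panobinostat, 11149 with ruxolitinib and 27956 with vehicle (0.673 [0.661 to 0.685]). The givinostat library thus held fewer such cells and a lower level inside them, and fewer than 100 cells per library stand behind the level.

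Other genes that define the distal convoluted tubule went in different directions. Slc12a3, the sodium chloride cotransporter and thiazide target, was at 5176 CPM with givinostat, 7742 with panobinostat, 5137 with ruxolitinib and 4091 with vehicle (1.27 [1.22 to 1.31]). Egf, epidermal growth factor, was at 867 CPM with givinostat and 518 with vehicle (1.67 [1.51 to 1.85]), Calb1, the calcium carrier calbindin D28k, at 6147 CPM with givinostat and 6574 with vehicle, and Wnk1, a kinase that controls the cotransporter, at 2969 CPM with givinostat and 2454 with vehicle. Pvalb, parvalbumin of the early segment, was at 41.3 CPM with givinostat and 84.2 with vehicle (0.491 [0.329 to 0.715]), and Tfap2b, a transcription factor of the segment, at 150.4 CPM with givinostat, 242 with panobinostat, 241 with ruxolitinib and 235 with vehicle (0.6396 [0.5197 to 0.783]). In the smallest cluster of the class, 7 givinostat and 9 vehicle cells, Pvalb was at 30.2 CPM with givinostat and 355 with vehicle. Without that cluster the Pvalb ratio was 0.709 [0.457 to 1.07], an interval that includes 1. Of 22 distal convoluted tubule genes, all measured, 1 was past 1.5-fold higher and 2 lower, median 0.05. Among 8421 genes measured in these cells 7.91% were higher and 6.07% lower, median 0.00.

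Of the magnesium and calcium handling list, 3 of 15 measured (18 listed) were higher and 2 lower, median -0.01. Trpm6, the magnesium channel of this segment, was at 117 CPM with givinostat and 96.5 with vehicle and its relative Trpm7 at 498 CPM with givinostat and 312 with vehicle (1.596 [1.399 to 1.82]). Trpv5, the apical calcium channel, was at 119 CPM with givinostat and 142 with vehicle, and Slc41a1, a magnesium exporter, at 42.5 CPM with givinostat and 22.02 with vehicle. The list shows no common direction. Of the corticosteroid response list, 5 of 13 measured (14 listed) were higher and 0 lower, median 0.50. Mt2, a metal-binding metallothionein, was at 504 CPM with givinostat and 253 with vehicle (1.995 [1.74 to 2.29]), Errfi1 at 81.5 CPM with givinostat and 37.6 with vehicle and Sgk1, the aldosterone-induced kinase, at 56.3 CPM with givinostat and 34.3 with vehicle.

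The distal convoluted tubule-like class held 3 clusters in proportions whose intervals overlap. The cluster with high S100g, which also carries connecting tubule genes, numbered 27 givinostat and 60 vehicle cells, 52.9% and 61.2% of the class, with a share ratio of 0.509 [0.311 to 0.815] of all cells and 0.685 [0.418 to 1.095] of tubule-like cells. The larger cluster with low S100g numbered 17 and 29 (33.3% and 29.6%), and the smaller one, high in immediate early genes, 7 and 9 (13.7% and 9.18%). Together both low S100g clusters held 24 givinostat and 38 vehicle cells, with a share ratio of 0.715 [0.41 to 1.22] of all cells. Of tubule-like cells their ratio was 0.961 [0.551 to 1.64], and both intervals include 1. In naming, the distal convoluted tubule markers of the larger one led its thick ascending limb markers by only 0.21 log2 units. A further 13 givinostat and 7 vehicle cells with Slc12a3 and macrophage genes were called mixed and left out.

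Inside the clusters Slc12a3 was at 2262 CPM with givinostat and 1462 with vehicle in the high S100g cluster and 11338 CPM with givinostat and 9855 with vehicle in the larger low one. In the smallest cluster Slc12a3 went the other way, at 6244 CPM with givinostat and 8710 with vehicle (0.717 [0.654 to 0.786]). S100g was at 31521 CPM with givinostat and 40062 with vehicle in the high S100g cluster, and at 633 CPM with givinostat and 9710.4 with vehicle in the smallest one, so the vehicle cells of that cluster were not low in it. Tfap2b was lower with givinostat in all 3, at 139 CPM with givinostat and 208 with vehicle in the first, 158 CPM with givinostat and 274 with vehicle in the second and 181 CPM with givinostat and 347 with vehicle in the smallest. It was also lower in principal or connecting tubule-like cells, at 120.1 CPM with givinostat and 212 with vehicle, where it was at 125 CPM with givinostat and 247 with vehicle in the cluster with S100g and 113 CPM with givinostat and 114 with vehicle in the other. Pnp, which salvages purine nucleosides, was likewise lower in all 3, at 59.97 CPM with givinostat and 181 with vehicle in the first, 81.3 CPM with givinostat and 153 with vehicle in the second and 67.9 CPM with givinostat and 149 with vehicle in the smallest, where the interval of the ratio includes 1. In the principal or connecting tubule-like cluster with S100g, Pnp was at 96.1 CPM with givinostat and 179 with vehicle. In the other it was at 103 CPM with givinostat and 85.2 with vehicle (1.21 [0.709 to 2.05]). Tfap2b and Pnp thus differed inside the distal convoluted tubule-like clusters, with cell numbers under 50 on the givinostat side.

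The highest named genes of the class included immediate early genes, which cells switch on within minutes of a stimulus. Cyr61, a matrix signal of stretched and injured epithelium, was at 667 CPM with givinostat, 529.9 with panobinostat, 174 with ruxolitinib and 186 with vehicle (3.59 [3.11 to 4.15]), Atf3, a stress-induced transcription factor, at 439.7 CPM with givinostat, 297 with panobinostat, 56.04 with ruxolitinib and 157 with vehicle (2.79 [2.37 to 3.29]), and Klf6 at 564 CPM with givinostat, 415 with panobinostat, 214 with ruxolitinib and 203 with vehicle (2.78 [2.41 to 3.21]). Givinostat was highest of the 4 libraries for these 3. Of the immediate early list, 8 of 19 measured (20 listed) were higher and 0 lower, median 0.34. Most of the Atf3 and Cyr61 UMIs lay in the smallest cluster, where Atf3 was at 2745 CPM with givinostat and 1636 with vehicle and Cyr61 at 4095 CPM with givinostat and 2149 with vehicle. Without these 7 and 9 cells the list median was -0.18 and the Atf3 ratio 0.814, so the direction turned, while the Cyr61 ratio was 2.71. A single givinostat cell gave 52.8% of the Hbegf UMIs. Immediate early genes also rise when tissue is dissociated, and the part of that in these values was not tested.

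In distal convoluted tubule-like cells 9 of 13 measured interferon response genes (29 listed) were higher and 0 lower, median 1.31. Of all measured genes 7.91% were higher and 6.07% lower there. A single givinostat cell gave 74.5% of the Irgm1 and 73.7% of the Igtp UMIs, and without the highest cell of each library the median was 0.38. In these cells macrophage markers summed to 93.0 CPM with givinostat and 33.7 with vehicle, and T markers to 20.7 and 86.8.

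**Figure D5:**
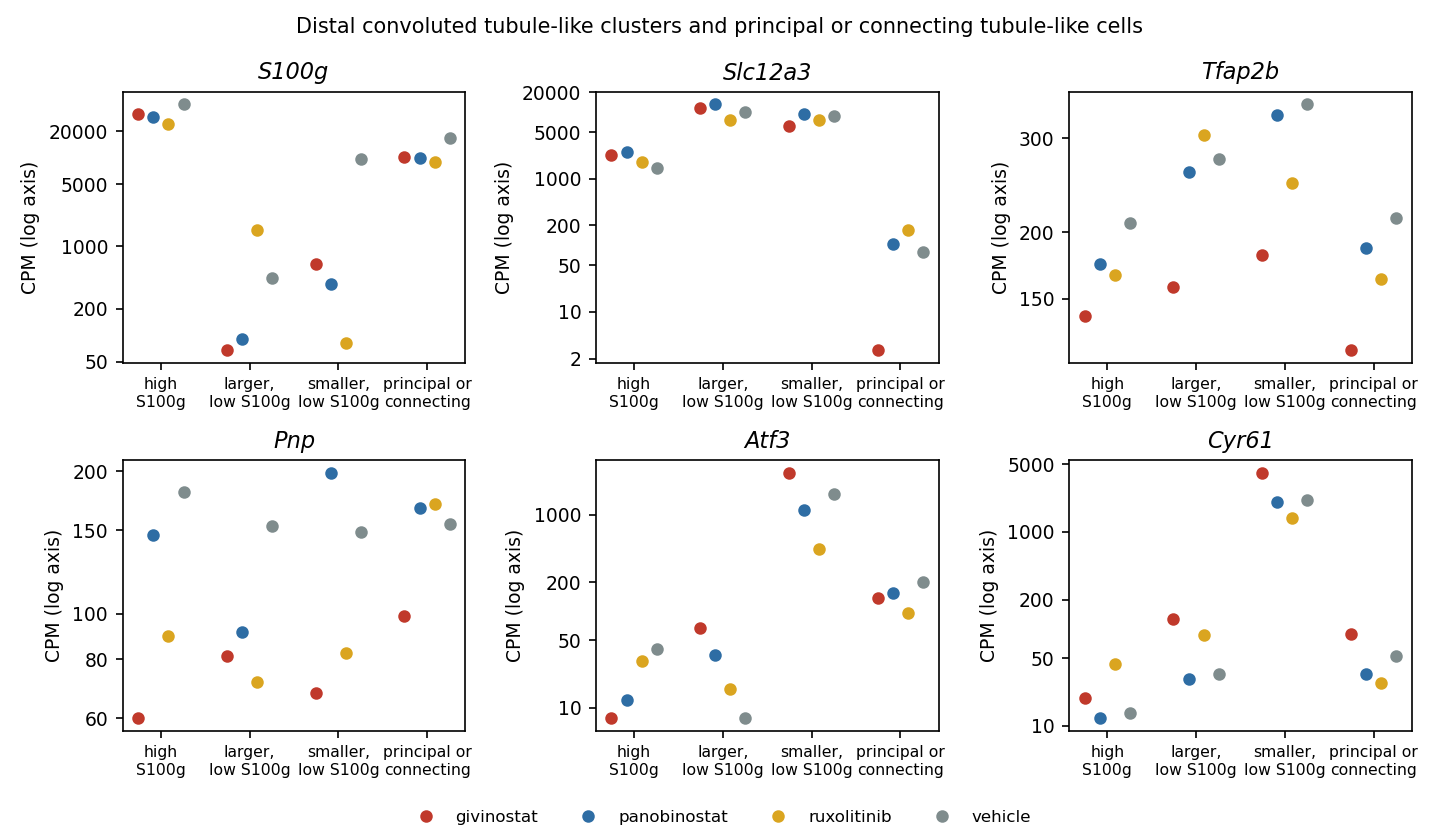
Levels (y axis, CPM on a log axis) of 6 genes in the 3 distal convoluted tubule-like clusters and in principal or connecting tubule-like cells, with 1 point per library for givinostat, panobinostat, ruxolitinib and vehicle. Tfap2b and Pnp are lower with givinostat than with vehicle in all 4 groups of cells, and Atf3 and Cyr61 are highest in the smaller cluster with low S100g. The last group joins clusters, and in the one without S100g among its leading genes neither gene was lower past counting error.

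Principal or connecting tubule-like genes were lower over the whole library, as were the cells. Of the principal cell and connecting tubule list, 10 of 14 measured (17 listed) were lower and 0 higher, median -0.68. Among all 9210 genes measured over the whole library 5.95% were higher and 1.03% lower, median 0.06. Hsd11b2, which shields the mineralocorticoid receptor from glucocorticoids, was at 122 CPM with givinostat, 107 with panobinostat, 149 with ruxolitinib and 275 with vehicle (0.444 [0.4296 to 0.458]). Scnn1g, a subunit of the sodium channel ENaC, was at 17.7 CPM with givinostat and 33.7 with vehicle, and Klk1, a kallikrein of the connecting tubule, at 1119 CPM with givinostat and 1849.7 with vehicle. Inside the 29 givinostat and 88 vehicle cells of the class Hsd11b2 was at 4665 CPM with givinostat and 4769.9 with vehicle and Aqp2, the vasopressin-controlled water channel, at 6198 CPM with givinostat and 4126 with vehicle. Within the class Hsd11b2 was thus close to equal and Aqp2 higher with givinostat. S100g was past 1.5-fold lower, at 10240.1 CPM with givinostat and 16815 with vehicle. The class joins a cluster with S100g among its leading genes, 15 givinostat and 59 vehicle cells, and one without it, 14 and 29. S100g was at 16696 CPM with givinostat and 22698 with vehicle in the first and 106 CPM with givinostat and 146 with vehicle in the second, so it was past 1.5-fold in neither. Aqp2 was at 1521 CPM with givinostat and 1889 with vehicle in the first (0.805 [0.737 to 0.878]). In the second it was at 13542 CPM with givinostat and 10461 with vehicle (1.29 [1.24 to 1.35]), the opposite direction. Of 22 distal convoluted tubule genes 4 of 20 measured were lower over the whole library and 0 higher, median -0.37.

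Thick ascending limb-like cells, which dilute the urine through Slc12a1, differed in few genes. Of 8767 genes measured 4.09% were higher and 1.76% lower, median 0.04. Of the thick ascending limb list, 1 of 15 measured (16 listed) was higher and 0 lower, median -0.09, and the one, Nos1, had 48.4% of its givinostat UMIs in 1 cell. Slc12a1 was at 4484 CPM with givinostat and 4600.2 with vehicle and Umod, the most abundant urinary protein, at 20471 CPM with givinostat and 23906 with vehicle. Id3, an inhibitor of differentiation factors, was among the highest at 110.4 CPM with givinostat, 10.3 with panobinostat, 72.3 with ruxolitinib and 23.9 with vehicle (4.63 [3.44 to 6.32]), and Hspa1b, a heat shock chaperone, at 238 CPM with givinostat, 215 with panobinostat, 194 with ruxolitinib and 105 with vehicle (2.28 [1.96 to 2.67]). Of 10 measured interferon response genes 0 were higher and 3 lower, median 0.03, with Isg15 at 11.7 CPM with givinostat, 56.8 with panobinostat, 6.87 with ruxolitinib and 42.1 with vehicle (0.279 [0.173 to 0.433]). For Isg15 in limb cells givinostat and ruxolitinib lay below panobinostat and vehicle, the same pairs of libraries as for Tpm3-rs7, and a link was not tested. Isg15 thus had opposite directions in limb cells and macrophage-like cells, and that difference was not tested.

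Proximal tubule-like cells, the most numerous class, had few genes past 1.5-fold: of 7887 measured genes 0.558% were higher and 0.697% lower, median 0.06. Dbp, an output gene of the circadian clock, was among the lowest at 68.2 CPM with givinostat, 90.96 with panobinostat, 134 with ruxolitinib and 129 with vehicle (0.531 [0.496 to 0.567]), and it was lower in other classes, at 97.4 CPM with givinostat and 168 with vehicle in thick ascending limb-like cells and 22.7 CPM with givinostat and 45.8 with vehicle in macrophage-like cells. Ciart, a clock repressor, was at 14.2 CPM with givinostat and 32.1 with vehicle, and Nr1d1, encoding REV-ERB alpha, at 40.7 CPM with givinostat, 84.3 with panobinostat, 43.9 with ruxolitinib and 69.3 with vehicle. Nr1d1 thus split the libraries in the same pairs as Tpm3-rs7, and a link was not tested. Of the clock list 3 of 13 measured (17 listed) were lower and 0 higher in proximal tubule-like cells, median -0.15, and 2 of 13 lower in thick ascending limb-like cells, median -0.16. Dbp follows the time of day, and the hour of death of each group is not among the labels used here.

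Of the PPAR target list in proximal tubule-like cells, 4 of 17, all measured, were lower and 0 higher, median -0.33. Ucp2, a mitochondrial carrier, was at 28.7 CPM with givinostat, 67.5 with panobinostat, 24.7 with ruxolitinib and 97.3 with vehicle (0.295 [0.268 to 0.325]). Vehicle was highest of the 4 for Ucp2. Givinostat and ruxolitinib both lay below panobinostat and vehicle, the same pairs of libraries as for Tpm3-rs7, and a link was not tested. Cpt1a, which brings fatty acids into mitochondria, was at 128 CPM with givinostat and 126 with vehicle, close to equal. Of 8 measured interferon response genes 0 were higher and 1 lower, median 0.11.

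Genes recorded to rise with histone deacetylase inhibitors were not higher as a group. Of 12 listed, 9 were measured over the whole library, of which 0 were higher and 3 lower, median -0.05. Among all 9210 genes measured there 5.95% were higher and 1.03% lower, median 0.06. In proximal tubule-like cells 0 of 7 measured were higher and 3 lower, median -0.56, beside 0.558% higher and 0.697% lower of 7887 genes. In both cases the lower members were a larger part of the list than lower genes were of all genes. Cdkn1a, the cell cycle inhibitor p21, was at 105 CPM with givinostat and 71.3 with vehicle over the whole library and 4.55 CPM with givinostat and 11.1 with vehicle in proximal tubule-like cells. H1f0, a linker histone recorded to rise with these drugs, was at 68.9 CPM with givinostat and 71.3 with vehicle over the whole library and 69.04 CPM with givinostat and 59.3 with vehicle in proximal tubule-like cells. Of the 11 histone deacetylase genes, 8 were measured and 0 were past 1.5-fold, median 0.12: Hdac1 was at 42.2 CPM with givinostat and 38.3 with vehicle and Hdac2 at 29.6 CPM with givinostat and 26.9 with vehicle. Acetylation itself was not measured, and the time between the last dose and the harvest is not given in the sources used here.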

How the data were processed

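Total kidney cells were captured with the 10x Chromium 3′ chemistry. Per the submitters' processing notes the reads were processed with Cell Ranger 3.0.1 on mm10, and the authors deposited 1 table of UMI counts over 16706 genes and 16003 cells. Filters made before deposit are not given in the sources used here. Cells with at least 200 detected genes were kept, and 0 columns of values were left unused. In the givinostat library 2 cells and in the vehicle library 0 cells fell below this minimum.

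Cells of all 4 libraries were clustered with scanpy 1.11.5 (Python 3.11.15) and leidenalg 0.10.2, using 2000 variable genes, 30 principal components and 15 neighbours. A cluster was named where 3 or more markers stood out and the best class led the next by 0.5 log2 units or held more of the 10 leading genes than any other class, and mixed clusters stayed unnamed. In the clustering of all cells, a cluster with a median Scrublet doublet score above 0.2 also stayed unnamed. Counts were summed per library and class and scaled to CPM. Genes were compared on log2(CPM + 5), with measured genes at 10 CPM and 10 UMIs, calls past 1.5-fold, and classes of at least 50 cells in both libraries. Ratios carry exact conditional binomial 95% intervals and shares exact Clopper-Pearson intervals, both for counting error only.

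Named genes were the 6 highest and 6 lowest ratios of a class among genes at 100 CPM in 1 library whose interval leaves out 1. Left out were mitochondrial, ribosomal, predicted, pseudogene, immunoglobulin, haemoglobin and Y-linked genes, those of X inactivation, markers of other classes, and genes below 25% of their level in another class. Members of the gene lists that fit a class were added. Other genes, and values of a named gene in other classes, were chosen after their values were seen. The classes, the 37 gene lists and the 48 pairs of class and list were chosen with earlier results of these data known. The scripts were tested on simulated data. Gene coordinates are from GENCODE vM21 (GRCm38) and 16519 symbols matched, and promoters are from RefSeq (GRCm38.p6). Because the chemistry counts 3′ ends, levels of different genes were not compared. Alternatives were other pseudocounts, minimums, size factors (edgeR 4.0.16 and DESeq2 1.42.0, on the deposited counts), UMI floors, thinning and denominators.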

Additional observations from a re-analysis of the deposited data

How the results depend on the processing

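No paired analysis was possible because each group is 1 library and the columns carry no replicate numbers. Leaving out a library was likewise not possible with 1 per group. Leaving out the highest cell, the smallest distal cluster or mixed clusters was chosen after seeing the data.

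Cell shares moved with the UMI floor and the denominator. With only cells of at least 5272 UMIs the share ratio was 2.65 for T-like cells, 7.01 for the Tnfrsf4 Cd4 cluster, 1.52 for type 17 alpha-beta T-like cells (0.481 without this floor), 5.95 for NK-like cells and 0.719 for dendritic-like cells. With a floor at the same fraction of proximal tubule-like depth in each library, the T-like ratio was 1.35. Within leukocyte-like cells the ratio was 0.905 for T-like cells (1.198 of all cells), 2.10 for the Tnfrsf4 Cd4 cluster and 0.695 for dendritic-like cells, and within tubule-like cells 1.01 for proximal tubule-like cells (0.751 of all cells). The cause of these shifts was not tested.

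Counts of genes past 1.5-fold moved with the pseudocount and the minimum. In T-like cells 155 were higher, against 300 with a pseudocount of 1, 35 with 20 and 38 with a minimum of 50 CPM. The 52 lower ones became 104, 15 and 17, and 81 with either TMM or DESeq2 size factors. In dendritic type 2-like cells the 666 higher genes became 169 with a pseudocount of 20, 1110 with no minimum and 148 with 50 CPM, and the 405 lower ones 93, 663 and 82. In distal convoluted tubule-like cells the 666 higher ones became 155 with a pseudocount of 20 and 116 with 50 CPM, and the 511 lower ones 95 and 70, with 914 under no minimum.

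List medians moved less. The principal cell and connecting tubule list over the whole library was -0.96 with thinned cells (-0.68 without). The interferon list in distal convoluted tubule-like cells (1.31) was 0.55 with a pseudocount of 20, 0.58 with no minimum, 1.85 with 50 CPM, 0.80 thinned and 0.38 without the highest cells. The immediate early list there (0.34) was -0.18 without the smallest cluster, and the checkpoint list in gamma-delta cells (0.66) was -0.030 with no minimum. Single gene ratios that turned were Ccl5 in gamma-delta cells at 1.64 without the highest cells, Hes1 there at 0.875 with thinned cells, and Atf3 in distal convoluted tubule-like cells at 0.814 without the smallest cluster. Whatever the size of the shift, 19 of 435 recomputed list medians lay on the other side of 0 from the reported value, and 3 of 1353 gene ratios and 14 of 199 share ratios on the other side of 1.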
